A study of Homo sapiens with 24 samples.

Results

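Messenger RNA of LNCaP cells after 24 h of enzalutamide was compared with that after 4 h, from 4 of the 24 samples of the series, 2 at each time, chosen by the treatment and time in their labels. LNCaP is an androgen-dependent human prostate adenocarcinoma line, and enzalutamide (MDV in the labels) is an antiandrogen. All cells, vehicle-treated ones included, had spent 3 days in medium without phenol red and with charcoal-stripped serum, so enzalutamide was given in a setting already poor in androgen. The dose was 10 µM, and the labels call the 2 libraries of each time biological replicates. The other ligand groups used here are vehicle, which carries no time label, and 10 nM dihydrotestosterone (DHT), the potent natural androgen, at 4 h and 24 h, the DHT times as 2 libraries each. The vehicle samples are titled as replicates 1 to 4, but 3 of the 4 vehicle columns are named replicate 1, and these were summed, so that vehicle is given as 2 values. A separate experiment gave 25 µM enzalutamide or vehicle for 24 h to LNCaP cells transfected with non-targeting siRNA (siControl), with 3 libraries each. The comparison addresses what changes between an early and a late time of the antagonist without passing through vehicle.

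Androgen signalling drives kallikreins and other luminal secretory genes, lipid synthesis and, in cancer cells, entry into the cell cycle. Entry into S phase depends on E2F factors, which are held back by the retinoblastoma protein and its relatives until cyclin-dependent kinases phosphorylate them. Genes of the S phase carry E2F sites, whereas genes of G2 and mitosis are bound through a cell cycle homology region (CHR) by the DREAM and MuvB-MYBL2 complexes, with NF-Y at nearby CCAAT boxes. The integrated stress response is a separate program, in which ATF4 raises genes for amino acid synthesis, transport and tRNA charging.

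The enzalutamide libraries held 42131436 and 49283955 estimated counts at 4 h and 49986088 and 49029465 at 24 h. The 4 h replicates differed more from each other than the 24 h replicates did, with an SD of the log2 difference between replicates of 0.119 at 4 h and 0.0623 at 24 h over 8859 genes with an average log2 CPM (counts per 1e6 counts) of at least 4. Among the 395 of these genes with transcripts over 10000 bases, the median difference of 4 h replicate 1 from replicate 2 was -0.17 on the log2 scale, against -0.05 between the 24 h replicates and -0.02 between the times. The non-coding nuclear RNA MALAT1 made up 0.261% and 0.220% of the counts at 4 h and 0.420% and 0.437% at 24 h. Column names place the 4 h libraries in a set numbered 2 and the 24 h libraries in a set numbered 3, and what the number marks is not stated. Both sets also hold a vehicle column named replicate 1 and a DHT 24 h library, so the set could be entered as a term. The LNCaP label fitted the luminal markers, with FOXA1, HOXB13 and FOLH1 all abundant. Of the markers of other cells, 3 of 12 neuroendocrine, 5 of 8 basal and 5 of 9 fibroblast and muscle genes passed the filter on low counts, and the lowest adjusted p among them was 0.0622 (COL1A1, edgeR).

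Of 15555 genes tested, 1826 (11.7%) were higher and 2003 (12.9%) were lower at 24 h than at 4 h by edgeR's quasi-likelihood test at a Benjamini-Hochberg adjusted p below 0.05. Large changes were mostly falls, since 230 genes (1.48%) were lower and 50 (0.321%) were higher by over 2-fold. The falls lay among well expressed genes, with a median average log2 CPM of 4.60. The rises lay near the detection limit, where the median was -1.11 and 43 of the 50 were below 1. In 229 of the 230 falls the CPM of the times did not overlap, a pattern that 61.4% of all genes showed. With the set as a term the falls numbered 211, of which 187 were among the 230, and the rises 27, of which 10 were among the 50. Without 4 h replicate 1 the rises numbered 97, and at any fold 837 genes rose and 1321 fell without 24 h replicate 1 and 897 and 1242 without 24 h replicate 2. Of the 230 falls, 95 (41.3%) are in the cell cycle lists described next. Counts of list members are to be read against the 11.7% higher and 12.9% lower over all genes. Those with the set as a term are to be read against 591 higher and 1037 lower of 15595 genes.

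**Figure D1:**
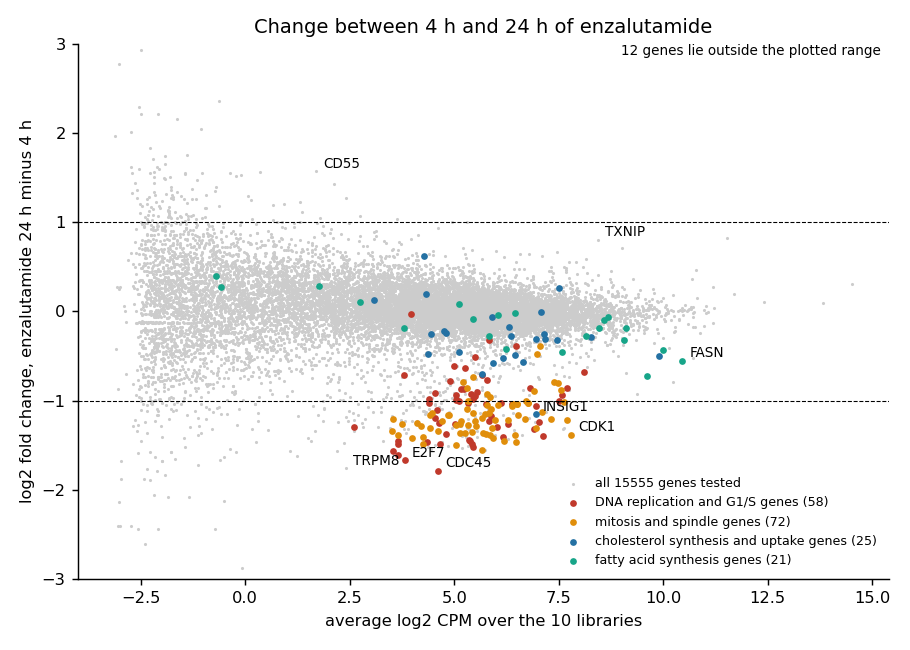
Each point is a gene, with its average log2 CPM over 10 libraries on the x axis and the log2 fold change of enzalutamide 24 h minus 4 h on the y axis. Replication (58) and mitosis (72) genes form a band around or below the lower dashed line, which with the upper one marks a 2-fold change, and the cholesterol and fatty acid lists have medians of -0.29 and -0.18, with INSIG1 below the line and ABCG1 above 0.

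Genes of DNA replication and the G1/S transition fell almost without exception. Of 58 tested members, 57 were lower, 34 of them by over 2-fold, and 0 were higher, also at an unadjusted p below 0.05 and with DESeq2, with a median log2 fold change of -1.03 against 0.01 over all genes tested. The summed level of the list went from 3009 and 3067 CPM at 4 h to 1561 and 1518 CPM at 24 h, while vehicle stood at 3275 and 3223 CPM. At 4 h 16 of the 58 (27.6%) were already lower than vehicle, where 6.68% of all genes were.

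CDC45, a subunit of the replicative helicase, had the largest fall among genes with an average log2 CPM of at least 1. Its level was 22.0 and 22.7 CPM at 4 h and 6.29 and 6.66 CPM at 24 h, with 22.2 and 22.9 CPM in vehicle. The 4 h libraries thus sat at the vehicle level and both 24 h libraries lay far below, a 3.45-fold fall (log2 -1.79 ± 0.06 SE, adjusted p = 7.21e-10 by edgeR's quasi-likelihood test). E2F1, an activator of S phase genes, was at 38.1 and 35.2 CPM at 4 h and 14.5 and 12.6 CPM at 24 h (log2 -1.44 ± 0.07 SE). E2F7 and E2F8, which are repressive members of that family, fell by 1.67 and 1.62 on the log2 scale. E2F8 alone of these 4 genes was already lower than vehicle at 4 h (log2 -0.31, adjusted p = 0.012, edgeR). BLM, a helicase of recombination, fell by 1.57 on the log2 scale. TICRR, which helps to load CDC45 at origins, and PKMYT1, a kinase that inhibits CDK1, are in no list and fell by 1.52 and 1.54. Named falls of this size were chosen among genes whose times do not overlap. The exception was CCNE1, which encodes cyclin E1. It was at 11.4 and 12.5 CPM at 4 h and 11.4 and 12 CPM at 24 h, against 18.1 and 16.5 CPM in vehicle, so its lower level was present at 4 h and the times overlapped.

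Mitotic genes fell as a block. All 72 tested members of the mitosis and spindle list were lower at 24 h, 61 of them by over 2-fold, with a median log2 fold change of -1.21. CDK1, the kinase that drives mitotic entry, was at 200 and 219 CPM at 4 h and at 82.1 and 78.6 CPM at 24 h. That is a 2.61-fold fall (log2 -1.38 ± 0.06 SE, adjusted p = 1.5e-09, edgeR), with vehicle at 234 and 218 CPM. The outer kinetochore gene NDC80 went from 51.1 and 51.5 CPM to 17.5 and 17.4 CPM, the spindle checkpoint kinase gene TTK from 33.9 and 36.7 to 12.1 and 13 CPM, and the kinesin gene KIF15 from 18.7 and 19.0 to 6.76 and 6.66 CPM. In none of them did a 24 h library come near a 4 h library. NDC80, TTK and KIF15 were named for the size of their falls, so this is no separate support. MYBL2 (log2 -1.47), BIRC5, which encodes survivin (-1.04), and the proliferation marker MKI67 (-1.21) fell too. SHCBP1, which no list holds, fell by 1.53 on the log2 scale. With the set as a term, the same numbers of members were lower, 57 in the replication list and 72 in the mitosis list.

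The cell cycle regulators around this core were mixed. Of 20 tested CDK inhibitors, D cyclins and pocket proteins, 10 were lower and 2 were higher. CDK2, the partner of cyclin E, fell by 0.95 on the log2 scale, the INK4 inhibitor genes CDKN2C and CDKN2D by 0.90 and 0.73, and RBL1, which encodes the pocket protein p107, by 0.79. CCND1, which encodes cyclin D1, was at 262 and 263 CPM at 4 h and 349 and 346 CPM at 24 h, with vehicle at 372 and 370 CPM. It was therefore low at 4 h and closer to vehicle at 24 h (log2 0.41 ± 0.03 SE, adjusted p = 2.61e-07, edgeR). CDKN1A, which encodes p21, was slightly lower at 24 h (log2 -0.18). In bulk RNA, fewer cells in a cell cycle phase and less RNA per cell cannot be told apart.

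The promoters of these genes are shown because members of both lists were lower together and the lists differ in the motifs they hold. Sequences are the 200 bases before the RefSeq transcript start (GRCh38.p14), 5′ to 3′ on the gene's strand, and capitals mark motif matches on either strand. The CHR letters searched were TTTGAA, and the NF-Y box was searched as CCAAT. E2F sites were searched as TTNGCGC. A second form of E2F site was searched as GGCGGGAA. The first 3 are from the replication list and the last 3 from the mitosis list. In MKI67 one CHR match and one CCAAT match share a base.
CDC45 (chr22:19479720-19479919, plus strand): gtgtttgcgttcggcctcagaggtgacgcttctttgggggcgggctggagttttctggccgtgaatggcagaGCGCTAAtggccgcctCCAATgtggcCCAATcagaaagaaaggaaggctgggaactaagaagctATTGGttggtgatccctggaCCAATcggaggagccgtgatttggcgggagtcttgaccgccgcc
E2F1 (chr20:33686386-33686585, minus strand): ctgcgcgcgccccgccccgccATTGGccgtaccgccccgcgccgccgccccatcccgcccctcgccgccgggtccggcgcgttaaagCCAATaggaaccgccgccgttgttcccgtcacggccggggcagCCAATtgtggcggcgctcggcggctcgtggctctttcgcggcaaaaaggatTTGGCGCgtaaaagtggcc
E2F7 (chr12:77065570-77065769, minus strand): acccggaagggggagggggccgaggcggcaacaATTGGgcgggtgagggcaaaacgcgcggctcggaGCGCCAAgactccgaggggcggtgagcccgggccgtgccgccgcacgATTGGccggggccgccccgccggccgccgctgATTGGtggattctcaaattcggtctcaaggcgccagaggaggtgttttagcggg
CDK1 (chr10:60778131-60778330, plus strand): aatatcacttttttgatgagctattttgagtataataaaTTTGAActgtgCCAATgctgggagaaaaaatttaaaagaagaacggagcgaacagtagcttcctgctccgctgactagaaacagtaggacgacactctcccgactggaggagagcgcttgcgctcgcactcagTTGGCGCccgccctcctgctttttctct
KIF15 (chr3:44761594-44761793, plus strand): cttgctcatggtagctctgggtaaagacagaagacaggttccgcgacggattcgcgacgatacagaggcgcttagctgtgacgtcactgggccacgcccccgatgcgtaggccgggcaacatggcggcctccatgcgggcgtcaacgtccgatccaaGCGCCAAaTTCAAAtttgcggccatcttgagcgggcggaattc
MKI67 (chr10:128126424-128126623, minus strand): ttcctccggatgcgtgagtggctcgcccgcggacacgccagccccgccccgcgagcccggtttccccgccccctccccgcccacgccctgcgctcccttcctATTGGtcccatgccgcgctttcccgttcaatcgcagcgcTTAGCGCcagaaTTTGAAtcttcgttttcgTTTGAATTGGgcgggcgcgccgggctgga
Windows of 250 bases before to 50 after the start could be matched for 52 of the 58 replication genes and 63 of the 72 mitosis genes. The CHR letters were present in 45 mitosis windows (71.4%) and 2 replication windows (3.85%), against 15.4% of all 27305 RefSeq windows and 9.77% of the 12031 windows of genes tested. Either E2F form was present in 37 replication windows (71.2%) and 16 mitosis windows (25.4%), against 10.7% of all windows and 16.9% of those of genes tested. CCAAT was frequent in both, in 51.9% and 68.3%, against 35.7% and 36.9%. These are matches of letters, not measured binding.

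**Figure D2:**
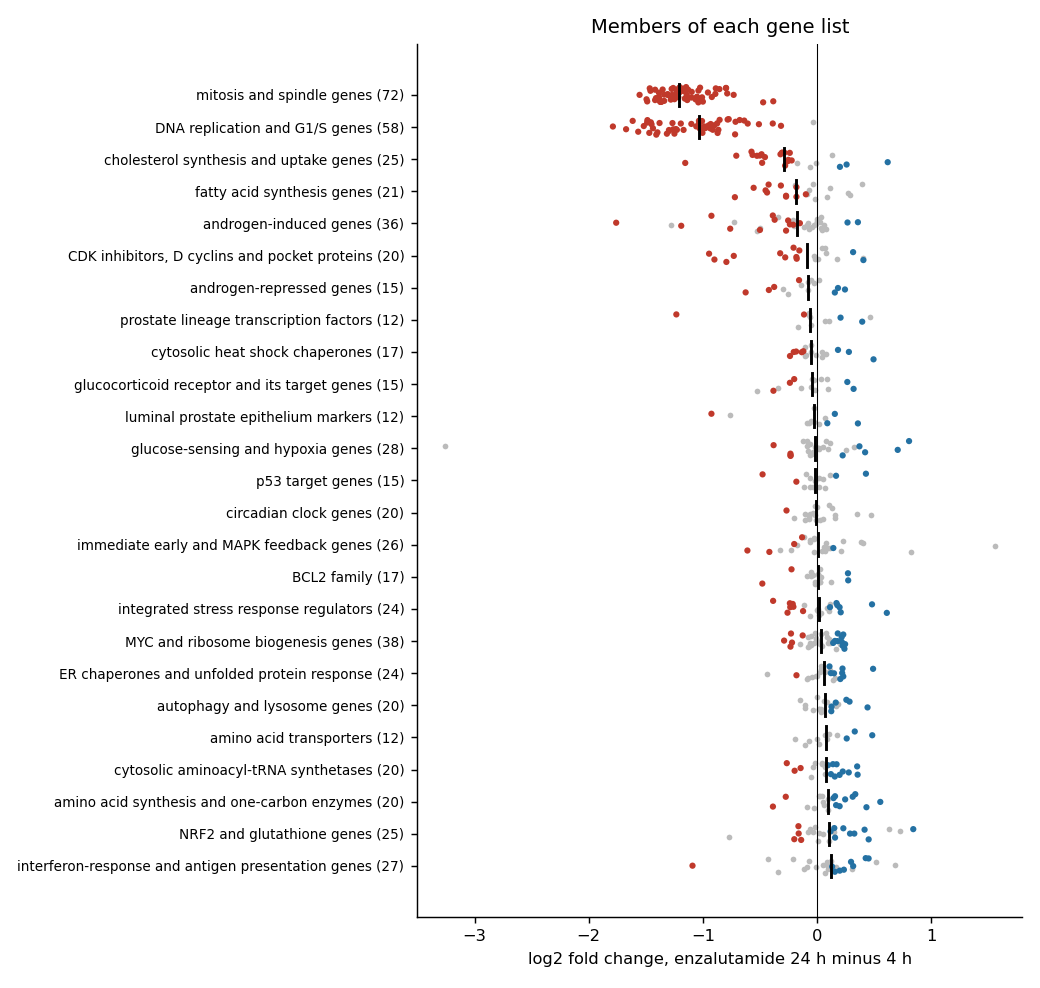
Each point is a tested member of a gene list (number of members in parentheses), the x axis gives the log2 fold change of enzalutamide 24 h minus 4 h, and black bars mark medians. Red and blue points are members lower or higher at adjusted p below 0.05, and grey points did not pass, so that the mitosis and replication lists stand apart from lists centred near 0.

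Many lipid synthesis genes were lower at 24 h. Of 25 tested genes of cholesterol synthesis and uptake, 18 were lower and 3 were higher, with a median log2 fold change of -0.29, and of 21 fatty acid synthesis genes 11 were lower (median -0.18). INSIG1, a sterol-regulated brake on SREBP processing, was at 113 and 123 CPM at 4 h and 54.1 and 52.0 CPM at 24 h, with vehicle at 97 and 122 CPM. Its 2.23-fold fall (log2 -1.16 ± 0.08 SE, adjusted p = 2.97e-07, edgeR) was the only one over 2-fold in these lists. EBP, a sterol isomerase, fell by 0.71 on the log2 scale. FASN, the fatty acid synthase, went from 1179 and 1235 CPM to 820 and 822 CPM, and the desaturase genes FADS2, FADS1 and SCD fell by 0.72, 0.45 and 0.44 on the log2 scale. ABCG1, a cholesterol exporter, went the other way, from 20.3 and 20.1 CPM to 30.7 and 31.2 CPM (log2 0.62 ± 0.06 SE). Fitted with the set, 13 cholesterol and 9 fatty acid genes were lower, where 1037 of 15595 genes were.

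Genes that androgen induces were lower in part. Of 36 members, 12 were lower and 2 were higher, and the median log2 fold change was -0.18. KLK3, which encodes prostate-specific antigen, was at 224 and 194 CPM at 4 h and 109 and 111 CPM at 24 h, with vehicle at 259 and 254 CPM. At 4 h it was below vehicle (log2 -0.30), and the 24 h libraries lay well below both (log2 -0.93 ± 0.05 SE, adjusted p = 3.00e-08, edgeR). The related KLK2 went from 6.28 and 4.56 to 2.56 and 2.14 CPM, and TRPM8, a cold-sensing ion channel, from 1.11 and 1.58 to 0.394 and 0.403 CPM. NCAPD3, a condensin II subunit, fell by 0.76 on the log2 scale, whereas FKBP5 and TMPRSS2, both classical androgen targets, fell by 0.24 and 0.25. SLC45A3 and HERC3 were higher at 24 h (0.36 and 0.27), SLC45A3 from 34.1 and 32.1 to 42.7 and 42.1 CPM with vehicle at 46.6 and 50.7 CPM. Against vehicle, 12 of the 36 members (33.3%) were lower at 4 h, where 6.68% of all genes were. At 24 h 22 of them were lower, where 17% of all genes were. Of 15 genes listed as androgen-repressed, 10 were lower and 3 higher from 4 h to 24 h of DHT. UGT2B28 was not repressed, at 5.63 and 6.09 CPM in vehicle and 25.9 and 24.6 CPM after 24 h of DHT. With enzalutamide 3 (20%) of the 15 were higher at 24 h and 4 (26.7%) were lower. Among the latter were UGT2B10, UGT2B17 and UGT2B28, which encode glucuronidation enzymes and are similar enough in sequence that reads could be split between them. UGT2B28 lost the call without 24 h replicate 1 and with the set as a term.

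**Figure D3:**
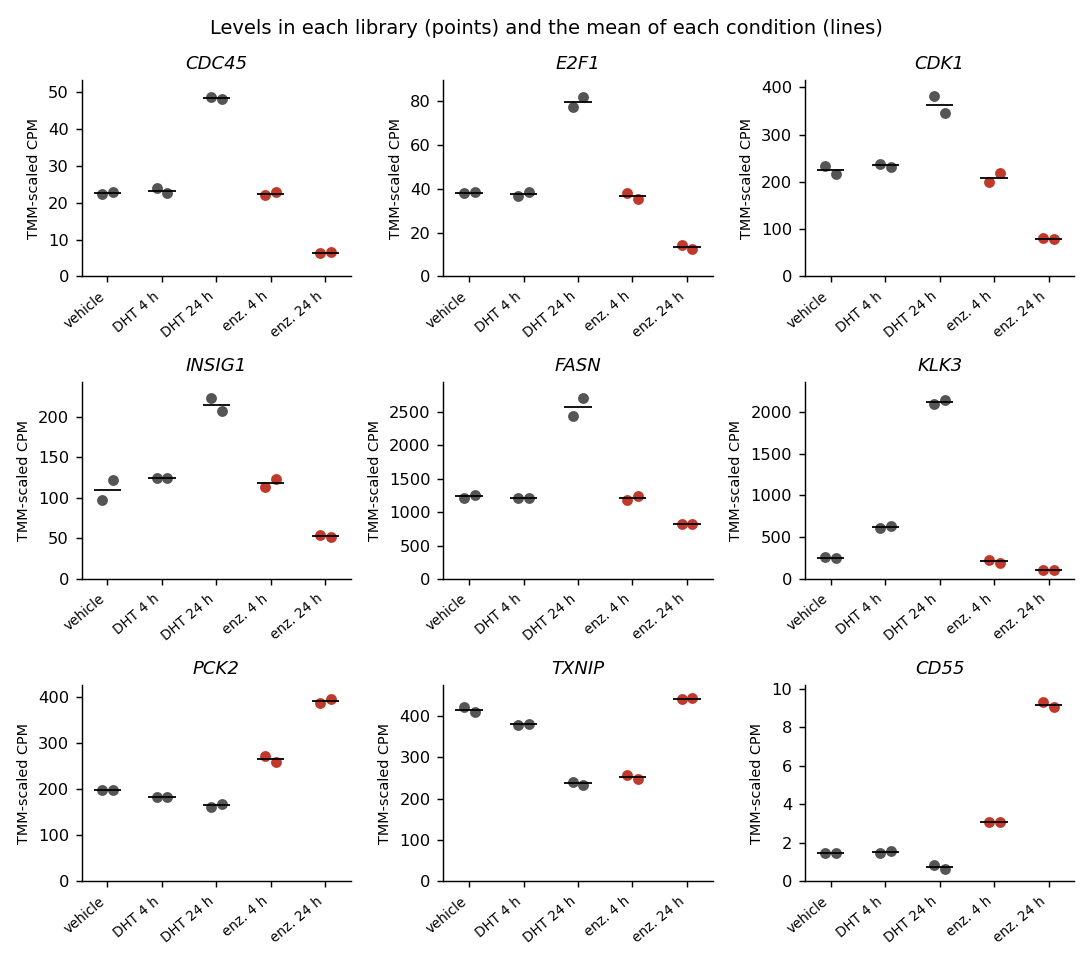
Points are single libraries and lines the mean of the 2 libraries of a condition, as CPM after TMM scaling on axes that start at 0, for 9 genes. CDC45, E2F1 and CDK1 stay at the vehicle level at 4 h of enzalutamide and fall by 24 h, TXNIP is low at 4 h only among the enzalutamide libraries, and PCK2 and CD55 climb from vehicle through 4 h to 24 h.

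The stress genes followed another course, with much of the change already present at 4 h. Of 24 integrated stress response regulators, 7 were higher and 7 were lower at 24 h than at 4 h, with a median log2 fold change of 0.01. Against vehicle, 17 of them were higher at 4 h (6.94% of all genes were) and 22 were higher at 24 h (16.4% of all genes were), and these contrasts share the vehicle libraries. CHAC1, which degrades glutathione, was at 35.1 and 35.4 CPM at 4 h and 35.8 and 34.8 CPM at 24 h, against 12.9 and 12.6 CPM in vehicle. DDIT3, which encodes CHOP, was likewise at 57.7 and 52.9 CPM and then 54.2 and 57.4 CPM, against 22.1 and 21.0 CPM. Both thus held an early plateau. ATF3 and SESN2, which encodes a leucine sensor, stood higher at 4 h than at 24 h and fell by 0.39 and 0.26 on the log2 scale. ATF4 (0.21), ATF5 (0.48) and CCPG1, an ER-phagy receptor (0.61), went on rising. CCPG1 went from 73.9 and 75.5 to 112 and 117 CPM, with vehicle at 58.2 and 54.3 CPM. The set term left 4 regulators higher and 2 lower, where 591 and 1037 of 15595 genes were.

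Among target enzymes of that response some were higher again at 24 h and most were not. Of 20 amino acid synthesis and one-carbon enzymes 9 were higher and 2 were lower, of 20 cytosolic aminoacyl-tRNA synthetases 10 were higher and 3 lower, and of 12 amino acid transporters 3 were higher. PCK2, the mitochondrial PEP carboxykinase, climbed from 199 and 199 CPM in vehicle to 273 and 260 CPM at 4 h and 387 and 395 CPM at 24 h (24 h minus 4 h, log2 0.55 ± 0.04 SE, adjusted p = 8.24e-08, edgeR). ASNS, the asparagine synthetase, rose by 0.43 and SHMT2, a mitochondrial serine hydroxymethyltransferase, by 0.33. The glycine transporter SLC6A9 rose by 0.48, the glutamine transporter SLC1A5 by 0.33, and the synthetases SARS and WARS by 0.35 each. SLC7A11, the cystine transporter, was at 478 and 615 CPM at 4 h and 591 and 642 CPM at 24 h, and the times overlapped, both above vehicle at 241 and 206 CPM. Its change of 0.17 did not pass the test, but it was 0.36 and passed without 4 h replicate 2, and 0.0038 without 4 h replicate 1. MTHFD1, whose product supplies one-carbon units to nucleotide synthesis, and FARSB went down, by 0.39 and 0.27. Fitted with the set, 5 of the enzymes and 6 of the synthetases were higher, where 591 of 15595 genes were.

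**Figure D4:**
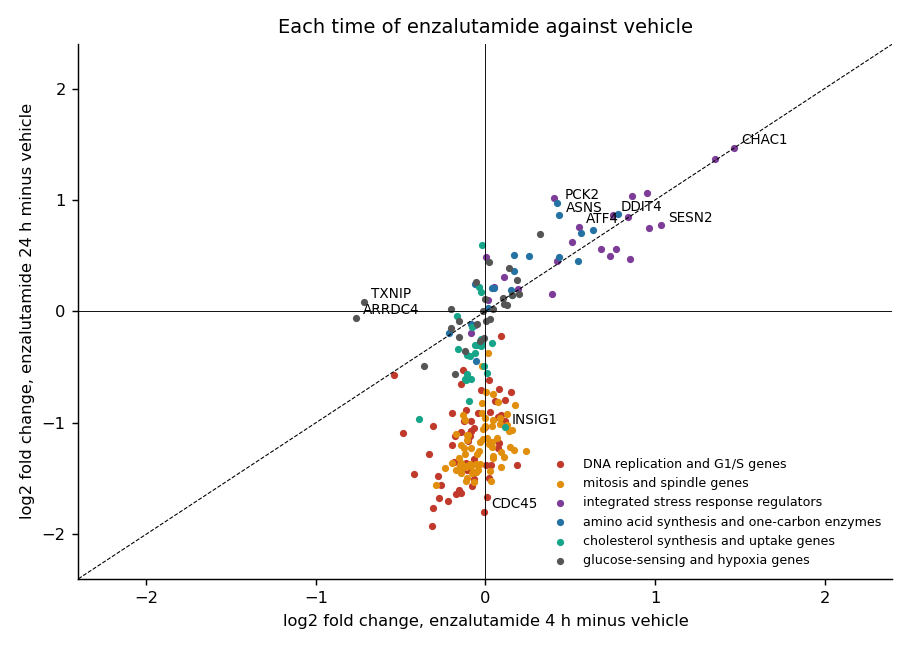
Each point is one of 225 members of 6 lists with an average log2 CPM of at least 1, with its log2 fold change against vehicle after 4 h on the x axis and after 24 h on the y axis; both axes share the vehicle libraries. Most cell cycle genes lie near 0 at 4 h and all lie below at 24 h, and TXNIP and ARRDC4 are low at 4 h only. Stress response regulators scatter to both sides of the dashed line of equal change, with CCPG1 above it and SESN2 below.

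Oxidative stress genes were in part higher at 24 h. Of 25 tested NRF2 and glutathione genes 9 were higher and 4 were lower at 24 h than at 4 h (median 0.10), and 0 of them were called against vehicle at 4 h by edgeR, with a median difference of 0.004 on the log2 scale. HMOX1, the inducible haem oxygenase, was at 5.90 and 6.69 CPM at 4 h, at 10.8 and 11.8 CPM at 24 h and at 5.70 and 5.97 CPM in vehicle (log2 0.84 ± 0.10 SE, adjusted p = 2.71e-05, edgeR). The quinone reductase gene NQO1 rose from 230 and 240 to 313 and 314 CPM. NFE2L2, which encodes NRF2 itself, was at a log2 fold change of -0.06 and did not pass the test. Of 20 tested autophagy and lysosome genes 6 were higher, among them MAP1LC3A (0.44), GABARAPL1 (0.28) and the receptor SQSTM1 (0.26). MAP1LC3A lost the call without 4 h replicate 2 and without either 24 h replicate. Of 24 ER chaperone genes 8 were higher and 1 was lower, with DNAJB9 (0.49) the largest rise. Of 27 interferon and antigen presentation genes 8 were higher, IRF7 (0.45), ISG20 (0.43) and STAT2 (0.32) among them. IRF7 lost the call without 4 h replicate 2 (0.26) or 24 h replicate 1, and ISG20 without 24 h replicate 2. OAS3, an oligoadenylate synthetase, was the only one lower, from 25.4 and 26.5 to 12.6 and 11.7 CPM. Under the set term 5 NRF2, 3 autophagy and 2 interferon genes were higher, where 591 of 15595 genes were.

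TXNIP and ARRDC4 dipped at 4 h and returned to about the vehicle level. TXNIP, an arrestin that restrains glucose uptake, was at 257 and 249 CPM at 4 h and 441 and 443 CPM at 24 h, with vehicle at 423 and 410 CPM. Its paralogue ARRDC4 was at 25.9 and 27.2 CPM and then 43.3 and 43.3 CPM, with vehicle at 45.5 and 44.6 CPM. Both 4 h libraries were thus the low ones for both genes, and the rise by 24 h was 0.80 ± 0.03 SE and 0.71 ± 0.05 SE on the log2 scale (adjusted p = 1.36e-09 and 3.66e-07, edgeR). The chaperone genes HSPA8 and HSPA1B, the latter nearly identical to HSPA1A and so uncertain, rose by 0.28 and 0.49 from levels below vehicle at 4 h. At 24 h both were still below vehicle (log2 -0.22 and -0.24). In the same list HSP90AA1 fell by 0.24. VEGFA had not dipped, at 113 and 101 CPM at 4 h against 88.3 and 82.8 CPM in vehicle, and rose by 0.37. P4HA2, a collagen prolyl hydroxylase, was at 12.9 and 13.5 CPM at 4 h against 13.3 and 12.7 CPM in vehicle, and rose by 0.42. LDHA, the lactate dehydrogenase, fell by 0.38. In all, 5 of 28 tested glucose and hypoxia genes (17.9%) were higher and 4 (14.3%) were lower, shares near those over all genes.

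Among genes with an average log2 CPM of at least 1, the largest rise was that of CD55, which shields cells from complement. It climbed from 1.47 and 1.5 CPM in vehicle to 3.10 and 3.06 CPM at 4 h and 9.29 and 9.05 CPM at 24 h, a 2.97-fold rise between the times (log2 1.57 ± 0.11 SE, adjusted p = 2.67e-07, edgeR). COL16A1, a collagen gene, went from 6.28 and 3.81 to 10.8 and 13.3 CPM, and CDH26, a cadherin gene, from 12.2 and 11.3 to 23.5 and 24.9 CPM. FAM129A, also called NIBAN1, rose from 36.1 and 38.7 to 73.1 and 76.5 CPM. The retinal reductase gene DHRS3 (1.07), FAM131B (1.12), PABPC1L (1.01), the axonemal dynein gene DNAH10 (1.01), DIO3, which inactivates thyroid hormone (0.99), RNF207 (0.99), the secretory cell factor gene BHLHA15 (0.96) and PPT2-EGFL8 (0.99) made up the remaining rises of the 12. The last is a read-through transcript that overlaps other genes, and DNAH10, DIO3 and PPT2-EGFL8 lost the call with the set as a term. PPT2-EGFL8, at 2.85 and 1.30 CPM at 4 h and 4.02 and 4.07 CPM at 24 h, also lost it without 4 h replicate 2 (0.50) and without either 24 h replicate, and was at 1.64 without 4 h replicate 1. The 12 largest falls held, beside genes named above, SYCE2, a synaptonemal complex gene (-1.62), DHRS2 (-1.56) and the sialyltransferase gene ST6GALNAC1 (-1.57).

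Of lineage and receptor genes, GATA2 was higher (0.21) and ETV1 slightly lower (-0.11). Both lost the call with the set as a term, without 4 h replicate 2 (0.13 and -0.09) and without 24 h replicate 2, and ETV1 also without 24 h replicate 1. NR3C1, which encodes the glucocorticoid receptor, was at 2.02 and 1.95 CPM at 4 h and 1.46 and 1.67 CPM at 24 h, against 0.479 and 0.609 CPM in vehicle. Its change between the times did not pass the test (log2 -0.34 ± 0.19 SE, adjusted p = 0.223, edgeR). Its target TSC22D3 rose by 0.26, but of 15 tested genes of the receptor list 2 were higher and 3 lower, FKBP5 (-0.24) among the latter. SNAI2, at 0.329 and 0.466 CPM at 4 h and 0.0986 and 0.242 CPM at 24 h, was called lower at very low counts (-1.23), and not called without 4 h replicate 2, without 24 h replicate 1 (-0.73) or with the set as a term, and it was at -2.00 without 24 h replicate 2. SOX9 rose by 0.39. VWF, usually an endothelial gene, fell from 12.7 and 13 to 9.01 and 8.45 CPM. Of the other 8 leukocyte and endothelial markers, CD68 (1.18 to 1.53 CPM) and LYZ (0.118 to 0.217 CPM) passed the filter on low counts and did not pass the test. Others were at or near 0, with 10 counts of PTPRC, 5 of PECAM1, 4 of KDR and 1 each of CD3E and CDH5 over all 4 libraries.

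The same interval under DHT ran in the opposite direction for many of these genes. From 4 h to 24 h of DHT all 58 replication genes and 71 of 72 mitosis genes were higher (26.3% of all genes were), with medians of 0.82 and 0.59. Of the 230 genes that fell by 2-fold with enzalutamide, 199 (86.5%) rose and 4 fell with DHT, where 23.5% of all genes fell. The enzalutamide and DHT contrasts share no library. Both DHT 4 h libraries are in a set numbered 1 and the DHT 24 h libraries in sets 2 and 3, so time coincides with set there as well. In a test of the difference between the changes, 3489 genes (22.4%) were higher and 3661 (23.5%) were lower with enzalutamide than with DHT, and 1273 (8.18%) differed by over 2-fold. With the set as a term this number was 1030, of which 836 were among the 1273. All 58 replication and all 72 mitosis genes differed downwards. KLK3 differed by -2.70 on the log2 scale and FASN by -1.65. Not all changes with time diverged, since TMPRSS2 fell with both (-0.25 and -0.21) and differed by -0.04. Its level did differ, at 441 and 441 CPM at 4 h and 379 and 383 CPM at 24 h of DHT. With enzalutamide it was at 73.0 and 69.0 CPM at 4 h and 57.9 and 61.1 CPM at 24 h. Vehicle was at 75.6 and 74.7 CPM. Across the 15555 genes the changes with enzalutamide and DHT had a Pearson r of -0.215 and a Spearman rho of -0.221, where genes are not independent and all libraries share one normalization.

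**Figure D5:**
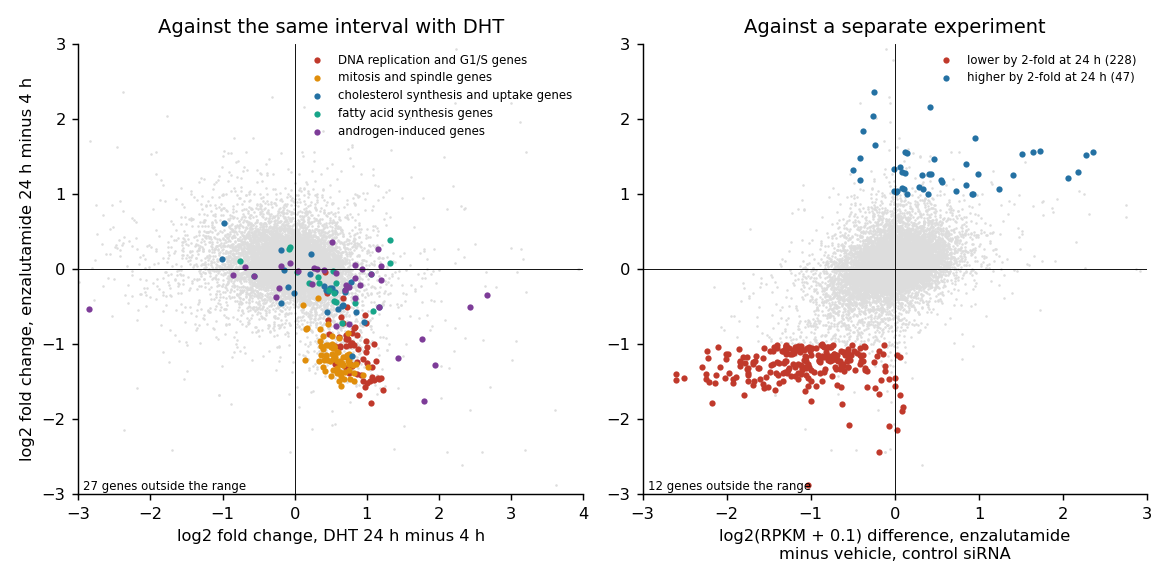
The y axis of both panels gives the log2 fold change of enzalutamide 24 h minus 4 h, and the x axis gives the change over the same interval with DHT (left) or the log2(RPKM + 0.1) difference of 25 µM enzalutamide from vehicle in siControl cells (right). Replication and mitosis genes lie to the lower right on the left, lipid genes mostly so (ABCG1 is at the upper left), and the genes lower by 2-fold lie to the left of 0 on the right, 206 of 228 of them past the test.

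In the siControl cells, a separate set of libraries, 409 of 20369 genes (2.01%) differed from vehicle by over 2-fold, and 228 of the 230 falls were tested with limma on log2(RPKM + 0.1). Of these 206 (90.4%) were lower with enzalutamide than with vehicle and the others did not pass the test, where 30.1% of the 15404 genes tested in both experiments were lower and 22.1% higher. All 58 replication genes and 71 of 72 mitosis genes were lower there, with median differences of -1.40 and -0.80. Of the 50 rises 47 were tested, and 20 were higher and 2 lower. CD55 was higher by 1.73 and FAM129A by 2.25, whereas RNF207 (0.03) and BHLHA15 (0.12) did not pass. Of the lipid genes, INSIG1 was lower by 0.21, FASN by 0.30, EBP by 0.67 and FADS2 by 0.76, and ABCG1 was higher by 0.56. TXNIP was lower by 1.08 and ARRDC4 by 0.55 in these cells at 24 h, where the ligand experiment at the lower dose had them at the vehicle level. The doses and the transfection differ between the experiments, so sizes are set side by side only.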

How the data were processed

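Poly(A) RNA of LNCaP cells was sequenced from directional libraries. For the ligand experiment the authors aligned reads with TopHat2 2.0 to hg19, per the labels, and quantified genes in Partek with default settings. They deposited estimated counts per gene, unnormalized, which were rounded here. For the siRNA experiment the deposited values are RPKM, set by the authors. Genes absent from a table were set to 0. Vehicle columns with the same replicate number were summed, except with the set as a term and in an alternative that kept the columns apart. There each vehicle column was entered as its own sample, so the columns named replicate 1 counted as separate samples. The number of value columns left unused is 0.

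Ligand counts were tested in R 4.3.3 with edgeR 4.0.16 (quasi-likelihood, TMM, default filter on low counts), in one model of 10 libraries and 5 conditions. The 24 h minus 4 h contrast and its difference from that of DHT were taken from it, and p-values were Benjamini-Hochberg adjusted over all genes. CPM are TMM-scaled. Although counts had been assumed, the siRNA values called for limma 3.58.1, run on the log2 of RPKM with a pseudocount of 0.1 for genes above 0 in at least 3 libraries. DESeq2 1.42.0 was an alternative. The edgeR tests of the time change and of its difference from DHT, and the limma test, were tried on simulated data. Precision is limited by 2 libraries per time. Lengths are of coding transcripts in the annotation supplied here. Promoters came from RefSeq (GRCh38.p14), by symbol or a unique older symbol, as the first window listed per gene. Figures were drawn with matplotlib 3.10.9.

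Genes were named by rule. These were the 12 largest called rises and falls whose times did not overlap and whose average log2 CPM reached 1, the 6 largest differences from DHT each way, up to 4 members per list of 31 lists, defining members, and genes the study names. Some genes the rule chose are not reported here. CHAC1, DDIT3, MALAT1 and marker genes were added after their values were seen. The comparison, members and lists were chosen with earlier results of these data known.

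Replicate numbers were checked for pairing. The deviations of same-numbered 4 h and 24 h enzalutamide libraries correlated with r = 0.0634 across genes, so they were not treated as pairs.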

Additional observations from a re-analysis of the deposited data

Results flagged for a closer look

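The change from 4 h to 24 h differed between enzalutamide and DHT by over 2-fold for 1273 genes, by the test of the difference itself (edgeR, adjusted p below 0.05). The 6 largest positive differences among genes that also passed the test between the enzalutamide times were, on the log2 scale, 3.20 for COL16A1, 3.16 for MATN2, 2.94 for FAM131B, 2.83 for VWA2, 2.79 for MCTP1 and 2.79 for MAN1A1. In these the fall with DHT was larger than the rise with enzalutamide, for example -2.38 against 0.78 for MATN2, an extracellular matrix gene, and -2.36 against 0.43 for MAN1A1, a Golgi mannosidase. The 6 largest negative differences were -4.27 for ST6GALNAC1, -3.56 for LINC01297, -3.55 for TRPM8, -3.46 for TM4SF1, -3.31 for ADAM7 and -3.28 for ZNF812P. TM4SF1 averaged 6.08 CPM over both 4 h libraries of enzalutamide and 2.43 CPM over both 24 h libraries, and it rose by 2.14 on the log2 scale with DHT. LINC01297, ST6GALNAC1 and ZNF812P had means under 1 CPM at both enzalutamide times.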

How the results depend on the processing

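The number of genes lower by 2-fold (230) was the most stable count, at 197 to 277 over all 17 alternatives. The 277 are falls tested against 1.5 with glmTreat, without the 2-fold cut. With that cut the highest number was 264, at an unadjusted p. The number of rises (50) was less stable. Without a filter on low counts it was 76, and with DESeq2 it was 12. Requiring the average log2 CPM to reach 1 left 7 rises. An unadjusted p gave 94, glmTreat against a fold of 1.5 gave 18, and the set as a term gave 27. With the set as a term 591 genes were higher and 1037 lower at any fold, where 1826 and 2003 were. The differences from DHT (1273) fell to 758 at an average log2 CPM of at least 1. The siControl count of 409 was 173 with a pseudocount of 1 RPKM and 890 with 0.01 RPKM. The cause of these shifts was not tested, except that stricter filters leave fewer genes to test.

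Leaving out one library gave 35 to 97 rises and 217 to 245 falls by 2-fold, the highest number of rises without 4 h replicate 1. At any fold it gave 837 to 1819 rises and 1242 to 2116 falls, with 837 and 1321 without 24 h replicate 1 and 897 and 1242 without 24 h replicate 2. The lone library was assumed to vary like the other conditions. Leaving out one library moved MED14, a Mediator subunit gene (-0.02), between -0.0893 and 0.0485. The set as a term moved MED14 to 0.115 and NFE2L2 to 0.0144. A replicate block gave 49 rises and 226 falls by 2-fold, and 1656 and 1840 at any fold. Pairing by number thus moved none of these counts by over 1.5 times. It did move the members higher in the immediate early and p53 lists and those lower among lineage factors. IER2, PLK3, SNAI2 and LINC01297 lost the call with the block. In the siControl cells the replicate block gave 416 genes.

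With 2 libraries per time, small changes of low genes are not separable from library spread. Time and set coincide for enzalutamide and for DHT, and the set term rests on the vehicle columns named replicate 1, one in each set, and on the DHT 24 h libraries, one each in sets 2 and 3. Of other genes named with a call, CDKN1A, FARSB, P4HA2, SOX9, RRS1, IER5, MATN2 and VWA2 lost it with the set as a term. MCTP1, LINC01297 and ZNF812P lost it then and also when a library was left out. The same holds for UGT2B28, MAP1LC3A, IRF7, ISG20, BOK, PMAIP1, PLK3, FAS, ARNTL and IER2.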

Other observations

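Other gene groups moved little between 4 h and 24 h of enzalutamide, and several had shares near the 11.7% higher and 12.9% lower over all genes. Of 38 MYC and ribosome biogenesis genes 10 were higher and 5 were lower, with RRS1 at 0.25 and LYAR at -0.29 on the log2 scale, and against vehicle 21 were lower at 4 h (6.68% of all genes were). Of 26 tested immediate early and MAPK feedback genes 1 was higher, IER2 (0.14, not called under 10 of 16 alternatives), and 4 were lower, KLF6 (-0.61) and IER5 (-0.42) among them. Of 17 BCL2 family genes 2 were higher, BCL2L2 and BOK (0.27 each), and 2 were lower, BCL2L12 (-0.48) and the BH3-only gene PMAIP1 (-0.22). Of 15 p53 target genes 2 were higher and 2 were lower, with PLK3 at 0.43 and FAS at -0.48. Of 20 clock genes 1 was lower, ARNTL (-0.27). BOK, PMAIP1, PLK3, FAS, ARNTL and LYAR each lost the call when at least 1 of the 4 enzalutamide libraries was left out. Of 17 cytosolic heat shock chaperones 3 were higher and 5 lower, of 15 glucocorticoid receptor genes 2 were higher and 3 lower, of 12 tested lineage factors 2 were higher and 2 lower, and of 12 luminal markers 3 were higher and 1 lower.

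LAMP3, a lysosomal membrane gene, fell below the filter on low counts, with 1 count in each 4 h library and 6 and 13 counts in the 24 h libraries. The nuclear RNAs MALAT1 and NEAT1 were higher at 24 h by 0.82 and 0.71 on the log2 scale, and their part in other results was not tested.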
